A study of Mus musculus with 18 samples.

Results

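Embryoid bodies (EBs) with induced Dlx2 were compared with EBs with induced GFP at day 2 of differentiation, by RNA sequencing. Both groups came from a mouse embryonic stem (ES) cell line with a tdTomato reporter at Msx1, to which an inducible Dlx2 or an inducible GFP transgene had been added. EBs were made in hanging drops and received 1 µg/ml doxycycline, the drug that switches the transgenes on. The comparison held 4 of the 18 samples of the series, as 2 Dlx2 libraries and 2 GFP libraries, and every gene symbol of the day-2 count table was a member. That table lists 26157 symbols, of which 18650 had enough counts to be tested. Cells of the Dlx2 line, treated with doxycycline and sorted at day 8 into an Msx1-positive and an Msx1-negative fraction (2 libraries each), were used for a later comparison. The column names of the day-2 table do not state doxycycline, and EBs of the 2 lines without doxycycline are not analysed here. A difference between the Dlx2 line and the GFP line that is not due to the transgene therefore cannot be told apart from the effect of Dlx2. The labels do not say whether replicate libraries came from separate cultures, so the p-values measure the spread between these libraries alone, which may be technical.

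Dlx2 encodes a homeodomain transcription factor of the distal-less family, which binds short AT-rich DNA motifs. In the embryo it acts with Dlx1 in the ventral forebrain, where it is needed for GABAergic interneurons, and with other Dlx genes in the mesenchyme of the pharyngeal arches, from which jaws and teeth form. It is silent in ES cells, whose self-renewal in serum depends on the cytokine LIF and on STAT3.

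Dlx2 itself (ENSMUSG00000023391, chromosome 2, 71543408 to 71546754 on GRCm38) stood at 4340 and 4720 CPM (read counts divided by the TMM-scaled library size in megareads) in the Dlx2 libraries, against 0.0812 and 0.0808 CPM, or 4 counts in all, in the GFP libraries. It took 0.461% and 0.501% of all counts in the Dlx2 libraries, and reads of the transgene and of the endogenous gene cannot be told apart. Total counts were 41552818 and 32579122 in the Dlx2 libraries and 26289399 and 26211608 in the GFP libraries. After thinning to the smallest library, 15133 and 15120 genes reached 1 CPM in the Dlx2 libraries, against 14521 and 14525 in the GFP libraries. Replicates correlated across genes at r = 0.995 in the Dlx2 group and 0.991 in the GFP group on log2 CPM. Mitochondrially encoded transcripts took 1.97% and 1.88% of counts in the Dlx2 libraries and 3.32% and 2.88% in the GFP libraries. Counts were not separated by strand. Of the genes named below, 73 share exonic positions with another annotated gene, so their reads may include those of the neighbour. The neighbour has a symbol other than that of a predicted model, clone or small RNA for Dlx1, Nphs1, Cxcl10, Mest, Scpep1, Fgf2, Gli1, Stat3, Jak1, Crim1, Pfkp, Ppat, Rps28, Heatr1, Psmd1, Rfc5, Rnf2, Dnmt3l, Lbr, Hand2, Snhg14, Snrpn, Cbx7, Ccnd1, Cdc20, Col4a1, Col4a2, Dlx6, Emx2, Otx2, Six3, Igf2, Ptbp1 and Syn1.

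A large part of the transcriptome differed. At an adjusted p below 0.05 (edgeR), 6367 genes were higher in Dlx2 EBs (34.1%) and 6157 were lower (33.0%), together 67.2% of the genes tested. The words rose and fell are kept for genes that passed this test. The typical change was small, with a median absolute log2 change of 0.54 over all genes and 0.78 over the called ones. The larger the change, the more the rises outnumbered the falls. With an absolute log2 change of at least 1, 3191 genes rose (17.1%) and 1798 fell (9.64%). With at least 2, 1482 rose (7.95%) and 548 fell (2.94%). With at least 3, 757 rose (4.06%) and 147 fell (0.788%), and with at least 5, 263 rose (1.41%) and 17 fell (0.0912%). Put in reads, 16.3% of the counts lay on different genes in Dlx2 and GFP EBs, against 2.40% between the 2 Dlx2 libraries and 2.63% between the 2 GFP libraries. Dlx2 itself made up 2.94% of that shift. Scaling by library size alone, without the TMM correction for composition, moved the median log2 change of all tested genes to 0.20, against 0.02 with TMM, and the calls to 8003 higher and 4576 lower. With 2 libraries against 2, the smallest two-sided p that an exact permutation of a single gene's values can give is 0.333, so calls depend on a spread estimated over many genes together.

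**Figure D1:**
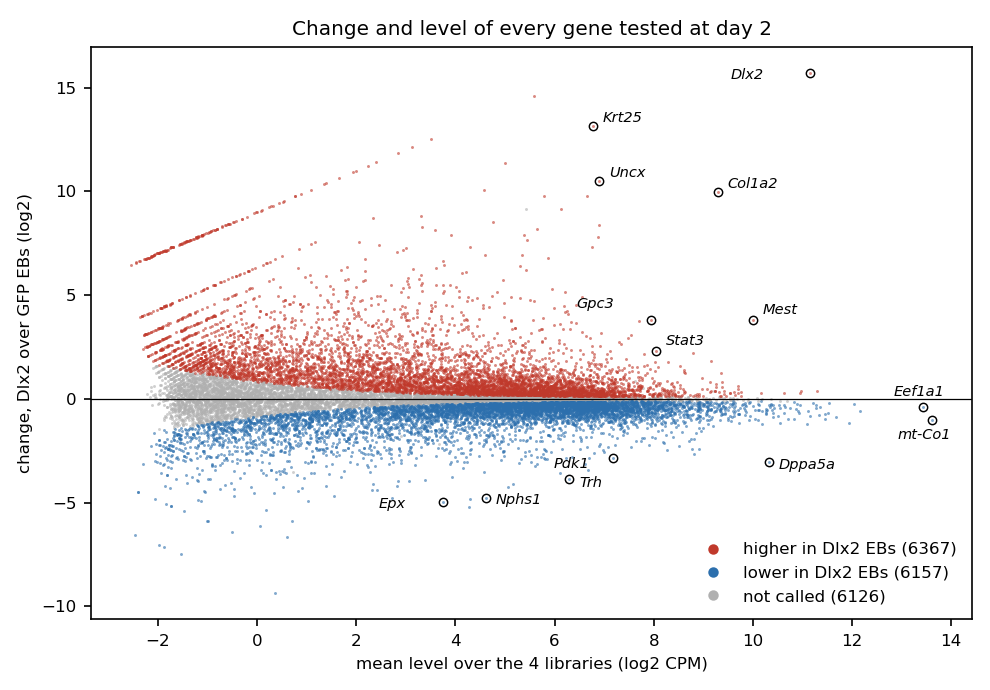
Log2 change of each of the 18650 genes tested (Dlx2 over GFP EBs, vertical axis) against its mean level over the 4 libraries (log2 CPM, horizontal axis). Red points are the 6367 genes higher in Dlx2 EBs, blue points the 6157 lower ones and grey points the genes not called, and 14 genes are named. The slanted lines of points at the left are genes with 0 or very few counts in 1 group. Rises reach further from 0 than falls, and falls prevail among the most abundant genes.

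Genes that were at or above 10 CPM in both Dlx2 libraries and below 1 CPM in both GFP libraries numbered 67, of which 63 are annotated as protein coding. The reverse pattern held for 4 genes, Nmu, Cxcl10, Kirrel2 and Epx. These limits were chosen after the values had been seen. Without such limits, 1483 genes had no count in either GFP library, 245 of them with 20 or more counts in the Dlx2 libraries. In the other direction 149 genes had no count in either Dlx2 library, 5 of them with 20 or more counts in the GFP libraries. These numbers of genes without a count come from unthinned libraries, and both Dlx2 libraries were deeper than the GFP libraries. The part of depth in them was not tested.

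Transcription factors of the Dlx, Nkx, Hmx and related homeobox families led the genes that appeared. All 10 tested symbols of the Dlx root rose, with a median log2 change of 6.83, the highest of 214 symbol roots with at least 10 tested members. Dlx2, whose rise the design fixed, is 1 of the 10, and the other 9 had a median of 6.26. Some of these 9, such as Dlx5 and Dlx6, were near 0 in GFP EBs and passed the filter through the Dlx2 libraries. Medians of symbol roots were not computed with at least 1 CPM in all 4 libraries. Dlx1, the neighbour of Dlx2 on chromosome 2, was at 202 and 202 CPM in Dlx2 EBs, against 0.244 and 0.202 CPM in GFP EBs. Dlx3, of the placenta and skin, was at 63.1 and 58.5 CPM, against 1.06 and 1.21 CPM. Dlx5 was at 17.6 and 17.0 CPM, against 0.203 and 0.242 CPM. Both libraries of a group lay close together in each case, and the groups were far apart. Dlx6os1, a noncoding RNA of the Dlx5 and Dlx6 locus, was at 102 and 91.0 CPM in Dlx2 EBs and had no count in GFP EBs. The other genes around Dlx2 on chromosome 2 were divided. Of 18 tested there, Dlx1 among them, 7 rose and 8 fell, at a median of -0.03 that turned to 0.14 with library size scaling, where 9 rose and 5 fell.

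Patterning factors of the forebrain and hypothalamus formed the list with the highest median log2 change, 4.77, against 0.02 over all genes. Of 29 tested members 25 rose and 1 fell. The median was 4.75 with the 3 members that had no count in GFP EBs set to their lower bound. Most members were near 0 in GFP EBs, and a minimum of 1 CPM in all 4 libraries left 5 of them, of which 3 rose and 1 fell. Nkx2-1, which specifies ventral forebrain and hypothalamus, was at 22.8 and 22.9 CPM in Dlx2 EBs and had no count in GFP EBs. It was at least 376-fold higher, with the GFP group set to a floor of 3 counts in sum. Fezf2, a factor of the rostral forebrain, was at 9.61 and 11.5 CPM in Dlx2 EBs and also had no count in GFP EBs, so that it was at least 172-fold higher. Otp, which hypothalamic neuroendocrine neurons need, was at 61.0 and 67.8 CPM with Dlx2, against 1 count in GFP EBs. Its ratio was 3160, with a 95% exact counting interval of 567 to 125000. None of the GFP libraries came near the Dlx2 libraries for any of these 3 genes.

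Further homeobox genes of this list followed the same order. Hmx3, of the hypothalamus and inner ear, was at 134 and 148 CPM with Dlx2 and 0.365 and 0.121 CPM with GFP. Its neighbour Hmx2 was at 50.9 and 57.3 CPM, against 0.162 and 0.121 CPM. Vax1, of the ventral forebrain and optic stalk, was at 27.4 and 32.1 CPM, against 0.162 and 0.0808 CPM. The rises of these 3 genes ran from 7.89 (Vax1) to 9.15 (Hmx3) on the log2 scale. Emx2 of the dorsal forebrain rose by 5.54 ± 0.23 (SE) and Six3 of the anterior plate by 4.95 ± 0.25, so that dorsal and ventral factors rose side by side. The zinc finger gene Sp8 was not called, with 3.81 and 3.41 CPM in Dlx2 EBs and 2.60 and 3.55 CPM in GFP EBs (adjusted p = 0.332). Otx2, a factor of epiblast, forebrain and midbrain, fell by 1.09 on the log2 scale, at 14.1 and 13.2 CPM with Dlx2 and 26.6 and 31.5 CPM with GFP.

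Factors from other regions of the embryo were among the strongest rises too. Uncx, a homeobox gene of somites and midbrain, was at 224 and 252 CPM in Dlx2 EBs and 0.244 and 0.0808 CPM in GFP EBs (log2 change 10.49 ± 0.14). Ebf3, a helix-loop-helix factor of neurons and mesoderm, was at 239 and 235 CPM, against 0.649 and 0.768 CPM. Bhlhe22, of retinal and cortical neurons, was at 96.4 and 104 CPM, against 0.365 and 0.323 CPM. Irx1, Foxd1 and Tbx2, of several patterned tissues, rose by 6.65, 6.10 and 4.62 on the log2 scale, and Cdx4 of the posterior body by 5.19. Hand2 of heart and pharyngeal arches was at 4.74 and 5.73 CPM with Dlx2 and had no count with GFP, at least 85.2-fold higher. Of the 10 tested symbols of the Hoxa cluster root 9 rose, with a median log2 change of 2.09. How many of these symbols had at least 1 CPM in all 4 libraries was not counted. The rises thus covered factors of anterior and posterior, neural and mesodermal territories.

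**Figure D2:**
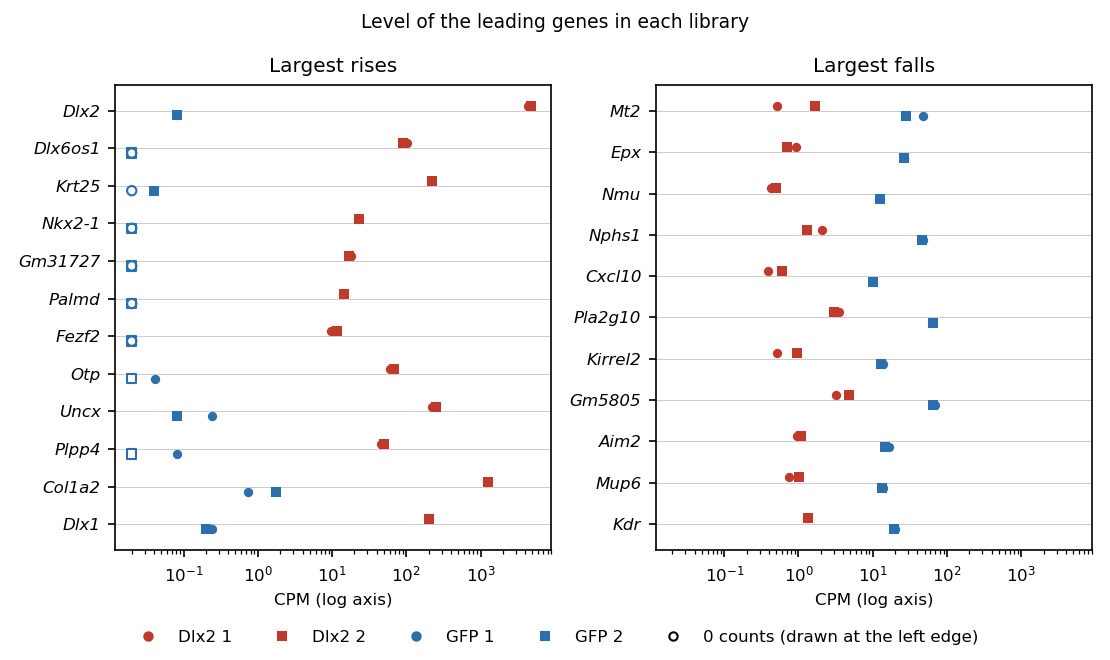
Level in each library (CPM, log axis) of the 12 genes with the largest rises (left) and 11 of the 12 with the largest falls (right) among called genes that average at least 10 CPM in the group where they are higher. Red marks are Dlx2 libraries and blue marks GFP libraries, circles are replicate 1 and squares replicate 2, and open marks at the left edge are 0 counts. No Dlx2 library overlaps a GFP library for any of the 23 genes plotted, and Mt2 shows the widest gap between replicates.

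Genes of the GABAergic lineage rose in part. Of 15 tested, 9 rose and 4 fell, with a median log2 change of 1.17. The GABA synthesis enzymes Gad1 and Gad2 were at 7.55 and 7.87 CPM and at 5.28 and 5.09 CPM in Dlx2 EBs. In GFP EBs Gad1 was at 0.284 and 0.606 CPM, and Gad2 at 0.244 and 0.162 CPM. The vesicular GABA transporter Slc32a1 was at 7.10 and 7.90 CPM, against 0.609 and 0.323 CPM. Npas1, a repressor found in interneurons, was at 115 and 127 CPM, against 2.96 and 3.11 CPM. The acetylcholine transporter gene Slc18a3 rose as well, by 4.45 ± 0.31. The chemokine receptor gene Ackr3 of migrating interneurons was not called, at 6.14 and 7.18 CPM with Dlx2 and 5.85 and 6.14 CPM with GFP (adjusted p = 0.409). Etv1 and Calb2, markers of interneuron classes, were among the 4 that fell. Etv1 was at 8.98 and 7.87 CPM with Dlx2 and 31.2 and 29.6 CPM with GFP, and Calb2 fell by 2.17 on the log2 scale. With at least 1 CPM in all 4 libraries 8 genes of the list were left, of which 4 rose and 3 fell, at a median of 0.57.

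Markers of neurons as such were mixed. Of 23 tested genes of neuronal structure and synapse, 13 rose and 7 fell, and their summed level was 416 and 409 CPM in Dlx2 EBs and 453 and 440 CPM in GFP EBs. Doublecortin (Dcx), a microtubule protein of young neurons, was at 11.7 and 8.45 CPM with Dlx2 and at 1 count with GFP, a ratio of 508 (95% exact interval 90.9 to 20100). The synaptic vesicle gene Syn1 was at 74.2 and 75.4 CPM, against 17.3 and 18.4 CPM. Stmn2, a growth cone protein, fell, with 58.5 and 64.1 CPM in Dlx2 EBs and 194 and 190 CPM in GFP EBs. Among neurogenic helix-loop-helix and Notch genes 6 of 27 rose and 14 fell, and with library size scaling 11 rose and 12 fell. Olig2, of motor neuron and oligodendrocyte progenitors, fell by 2.39 on the log2 scale, at 4.72 and 4.25 CPM with Dlx2 against 20.7 and 26.6 CPM with GFP. The proneural gene Neurog1 fell by 2.54, at 0.272 and 0.376 CPM against 1.95 and 1.82 CPM. Its relative Neurog2 rose by 2.62 ± 0.68 at similarly low levels, with 0.748 and 0.521 CPM against 0.0406 and 0.162 CPM, and that call was lost without Dlx2 replicate 1 (adjusted p = 0.103). The receptor gene Notch2 was not called, at 57.3 and 51.0 CPM against 48.9 and 49.7 CPM (adjusted p = 0.0979). In bulk samples, fewer cells of a type and less RNA per cell cannot be told apart.

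Keratins of the hair follicle inner root sheath appeared together. Krt25 (chromosome 11, 99315516 to 99322951) was at 215 and 224 CPM in Dlx2 EBs and at 1 count in GFP EBs. Its ratio was 10800, with a 95% exact counting interval of 1940 to 427000. Its cluster neighbour Krt27 was at 79.8 and 86.6 CPM, against 0.365 and 0.323 CPM. Krt26 was at 1.36 and 0.926 CPM and had no count with GFP, at least 19.3-fold higher. Krt71, a type II partner from chromosome 15, was at 23.1 and 25 CPM, against 0.244 and 0.364 CPM, a log2 change of 6.29 ± 0.20. Genes of this family are similar in sequence, and reads could be divided between copies. Of 21 tested keratins and other intermediate filament genes 13 rose and 6 fell. The markers of surface ectoderm and epidermis did not rise: 0 of 8 rose and 5 fell. With library size scaling 0 rose and 1 fell. Their summed level was 577 and 606 CPM in Dlx2 EBs and 723 and 793 CPM in GFP EBs.

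The sequences before the start sites of Krt25 and Krt71 are shown because both genes were near 0 in GFP EBs and abundant in Dlx2 EBs, and their promoters hold the homeodomain core motif TAATTA. They come from RefSeq on GRCm38.p6, run 5′ to 3′ on the minus strand, and end at the start of the gene. Capitals mark TAATTA, which is its own reverse complement. The Krt25 sequence lies at chr11:99322952-99323201 and the Krt71 sequence at chr15:101743110-101743347.
Krt25: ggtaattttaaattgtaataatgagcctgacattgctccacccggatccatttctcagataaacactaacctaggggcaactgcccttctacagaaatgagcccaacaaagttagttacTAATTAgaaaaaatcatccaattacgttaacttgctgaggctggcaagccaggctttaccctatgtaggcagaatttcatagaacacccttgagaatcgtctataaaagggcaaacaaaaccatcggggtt
Krt71: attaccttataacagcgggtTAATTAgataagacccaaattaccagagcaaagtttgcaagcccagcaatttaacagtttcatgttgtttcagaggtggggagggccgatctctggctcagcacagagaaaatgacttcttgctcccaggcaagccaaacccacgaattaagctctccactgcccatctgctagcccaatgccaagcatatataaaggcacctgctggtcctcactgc
Each also held 1 match to TATAAA on this strand. In the 250 bases before the start, TAATTA was found in 4.90% of 27025 promoters of the RefSeq table and in 2.55% of the 12652 that belong to tested genes. At a log2 change of at least 1, it was found in 69 of 2047 promoters (3.37%) of genes that rose and in 40 of 1079 (3.71%) of genes that fell, against 95 of 3675 (2.59%) of genes not called. At a change of at least 3, it was found in 29 of 482 (6.02%) of genes that rose and in 7 of 98 (7.14%) of genes that fell. At neither limit was its share higher among rises than among falls. Among the genes of the 10 CPM rule above, 5 of 49 promoters held it (10.2%). TATAAA, searched on both strands as a second AT-rich hexamer, was found in 8.40% of the rises and 9.73% of the falls of at least 1, in 13.3% and 18.4% of those of at least 3, and in 6.69% of genes not called. The GC-rich GGGCGG, also on both strands, was found in 53.8% and 42.7%, in 41.7% and 18.4%, and in 54.6% of the same sets. These are counts of letters in a window and not sites of binding.

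The largest falls belonged to genes of varied tissues. Epx, eosinophil peroxidase, was at 0.930 and 0.694 CPM in Dlx2 EBs and 26.0 and 26.1 CPM in GFP EBs, a log2 change of -4.98 ± 0.16. Nphs1, which encodes the podocyte protein nephrin, was at 2.06 and 1.30 CPM, against 48.3 and 46.0 CPM. Its relative Kirrel2 fell with it, at 0.521 and 0.955 CPM against 13.8 and 13 CPM. Pla2g10, a secreted phospholipase, was at 3.54 and 3.04 CPM, against 62.2 and 64.0 CPM. The neuropeptide genes Nmu and Trh fell by 4.77 and 3.85 on the log2 scale, and Trh was at 9.73 and 10.6 CPM with Dlx2, against 137 and 156 CPM with GFP. The interferon-inducible chemokine gene Cxcl10 was at 0.385 and 0.608 CPM, against 10.1 and 10.2 CPM. Kdr, the VEGF receptor of endothelium, was at 1.32 and 1.33 CPM, against 20.01 and 19.1 CPM. In each of these genes with values given, both Dlx2 libraries lay below both GFP libraries. The metallothionein gene Mt2 was at 0.521 and 1.65 CPM in Dlx2 EBs and 47.2 and 28.3 CPM in GFP EBs, a log2 change of -5.20 that was called (adjusted p = 0.0213). The call was lost without Dlx2 replicate 1 at -4.51 (adjusted p = 0.113), and likewise when Dlx2 replicate 2 was left out, at -6.16 (adjusted p = 0.0639). Its neighbour Mt1 was not called, at 353 and 376 CPM against 362 and 414 CPM (adjusted p = 0.167).

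Counted in CPM rather than folds, the shift rested on other genes. After Dlx2, the largest gain was that of the imprinted gene Mest, at 1920 and 1910 CPM in Dlx2 EBs and 134 and 138 CPM in GFP EBs (log2 change 3.81 ± 0.053). The collagen gene Col1a2 was at 1240 and 1270 CPM, against 0.731 and 1.74 CPM. Next came the actin-binding protein genes Tpm1 and Tmsb10, the imprinted genes Peg10 and Meg3, the lysosomal peptidase gene Scpep1, Ybx1 and the cell surface proteoglycan gene Gpc3. Scpep1 was at 704 and 748 CPM, against 161 and 153 CPM, and Gpc3 at 457 and 457 CPM, against 35.2 and 31.1 CPM. Each was higher in both Dlx2 libraries than in either GFP library. The largest losses were those of mitochondrially encoded mt-Co1, mt-Cytb and mt-Nd1, the chaperones Hsp90aa1 and Hspa8, the elongation factor Eef1a1, the glycolytic enzymes Pkm and Eno1, the ribosomal protein gene Rpsa and the pluripotency-associated gene Dppa5a. Mt-Co1 was at 8520 and 8070 CPM in Dlx2 EBs and 17800 and 15700 CPM in GFP EBs. Hsp90aa1 was at 2430 and 2420 CPM, against 5620 and 5350 CPM. Dppa5a was at 267 and 283 CPM, against 2300 and 2290 CPM.

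Components of the LIF and STAT3 pathway moved in opposite directions. LIF acts through the receptor chains LIFR and gp130 and the kinases JAK1 and JAK2 on STAT3, which induces its own inhibitor SOCS3. Of 24 tested genes of cytokine and JAK-STAT signalling 10 rose and 9 fell, at a median of -0.10 that turned to 0.07 with library size scaling. Stat3 was at 444 and 438 CPM in Dlx2 EBs and 86.3 and 90.8 CPM in GFP EBs, a log2 change of 2.32 ± 0.051 (adjusted p = 2.17e-20). Jak2 was at 190 and 179 CPM, against 25.8 and 22.9 CPM, and Jak1 rose by 1.53 ± 0.051. Osmr, the oncostatin M receptor chain, was at 33.7 and 31.7 CPM, against 1.26 and 0.889 CPM. Signal carriers were thus several-fold higher with Dlx2 in both libraries. The LIF receptor gene Lifr fell, at 37.0 and 38 CPM with Dlx2 and 90.0 and 74.5 CPM with GFP. The pathway's targets Socs3 and Pim3 fell too, by 1.00 and 1.35 on the log2 scale, and Socs2 by 1.73. Socs3 was at 14.1 and 14.6 CPM, against 27.8 and 29.5 CPM. Stat4, a STAT of lymphoid cells, fell by 2.66, and Stat2 was not called (adjusted p = 0.317).

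WNT, BMP and TGF-beta, FGF, hedgehog and retinoid genes each had more rises than falls. Over all tested genes 34.1% rose and 33.0% fell. Of 42 WNT ligands and receptors 24 rose and 11 fell, with a median log2 change of 0.64. Wnt5a, a ligand of the noncanonical branch, was at 31.9 and 31.2 CPM in Dlx2 EBs and 0.771 and 0.727 CPM in GFP EBs. The WNT antagonist gene Dkk1 was at 15.6 and 16.4 CPM, against 0.487 and 0.121 CPM. Wnt8a, an early embryonic ligand, fell to 0.385 and 0.492 CPM with Dlx2, against 5.60 and 6.38 CPM with GFP. Receptors were exchanged in part, since Fzd2 rose by 2.24 ± 0.082 and Fzd7 fell by 1.17.

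Hedgehog genes moved in both directions. Of 17 tested 9 rose and 5 fell, with a median of 0.44. Boc, a co-receptor, was at 33.6 and 32.1 CPM in Dlx2 EBs and 0.974 and 0.808 CPM in GFP EBs. Hhip, which binds and sequesters the ligand, was at 37.3 and 35.3 CPM, against 0.812 and 1.90 CPM. The ligand release factor Scube1 was at 37.5 and 35.3 CPM, against 4.38 and 4.52 CPM. The transcriptional target Gli1 fell by 2.36 on the log2 scale, at 1.81 and 2.34 CPM against 10.8 and 10.5 CPM, and the target and receptor Ptch1 fell by 0.46. The signal transducer Smo was not called, at 43.0 and 44.9 CPM against 38.1 and 41.1 CPM (adjusted p = 0.0780).

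Of 20 genes of retinoid metabolism and response 10 rose and 6 fell, with a median of 0.48. With library size scaling 11 rose and 4 fell. Aldh1a1, which makes retinoic acid, was at 5.33 and 5.90 CPM in Dlx2 EBs and 0.162 and 0.162 CPM in GFP EBs. Cyp26b1, which degrades it, was at 16.1 and 16.1 CPM, against 0.203 and 0.364 CPM, and Cyp26a1, with the same role, rose by 3.84 ± 0.31. Aldh1a2 and Aldh1a3, the other synthesis enzymes of the Aldh1a group, rose by 0.53 and 0.77, and the call of Aldh1a2 was lost when Dlx2 replicate 1 was left out (adjusted p = 0.0787), as it was by DESeq2 (adjusted p = 0.0614). The binding protein Crabp1 was at 145 and 146 CPM, against 9.01 and 8.12 CPM. The response gene Stra8 and the receptor gene Rarg fell by 3.21 and 1.10 on the log2 scale. Another receptor gene, Rxrb, was not called (adjusted p = 0.587).

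Among 41 BMP and TGF-beta genes 22 rose and 12 fell, with a median of 0.66. With library size scaling 25 rose and 8 fell, and with at least 1 CPM in all 4 libraries 15 of 30 rose and 10 fell, at a median of 0.43. The ligand gene Tgfb2 and the receptor gene Tgfbr1 rose, with Tgfb2 at 34.7 and 35.3 CPM in Dlx2 EBs and 3.73 and 2.95 CPM in GFP EBs, and Tgfbr1 at 237 and 221 CPM, against 48.2 and 45.6 CPM. Tgfb1, another ligand gene, fell by 1.52 on the log2 scale. The ligand gene Nodal and its antagonist Lefty1, both active in the epiblast, fell by 1.68 and 1.89 on the log2 scale. The inhibitory Smad6 rose by 2.68 ± 0.14, and the BMP receptor gene Bmpr1a was not called (adjusted p = 0.132). Of 28 FGF genes 15 rose and 7 fell, with a median of 0.52 that was 0.31 over the 18 with at least 1 CPM in all 4 libraries. Fgf2 was at 12.1 and 10.9 CPM, against 0.893 and 0.687 CPM. Fgf15 fell by 3.48 on the log2 scale, and Fgf5, a ligand of the primed epiblast, by 3.18. The feedback inhibitors diverged, with Spry1 up by 1.97 ± 0.082 and Spry4 down by 0.98, while Dusp6 was not called (adjusted p = 0.121). Of 38 other growth factor genes 22 rose and 12 fell, with a median of 0.63 that was 0.40 over the 33 with at least 1 CPM in all 4 libraries. Pdgfra reached 241 and 227 CPM, against 1.01 and 1.09 CPM, and the GDNF receptor gene Ret 64.9 and 64.8 CPM, against 5.03 and 4.61 CPM. The stem cell factor receptor gene Kit and the binding protein gene Igfbp2 fell by 1.74 and 1.31.

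Axon guidance and Eph genes rose more often than they fell, with 25 and 12 of 44 guidance genes and 13 and 4 of 21 ephrin and Eph genes. With library size scaling 28 guidance genes rose and 8 fell. With at least 1 CPM in all 4 libraries 18 of 34 guidance genes rose and 11 fell, at a median of 0.30 against 0.43 over all 44. The neuropilins, co-receptors of semaphorins and VEGF, both rose. Nrp1 was at 55.7 and 56.0 CPM in Dlx2 EBs and 1.22 and 1.90 CPM in GFP EBs. Nrp2 was at 287 and 271 CPM, against 46.0 and 43.3 CPM. The semaphorin receptor gene Plxna2 was at 148 and 140 CPM, against 6.58 and 8.44 CPM, and the ligand genes Sema6d and Ntn4 rose by 5.50 ± 0.21 and 4.91 ± 0.21. Epha2, an abundant receptor of ES cells, fell by 2.20 on the log2 scale, at 83.5 and 87.5 CPM against 390 and 395 CPM. Of 21 Hippo genes and YAP targets 5 rose and 10 fell, at a median of -0.02 that turned to 0.15 with library size scaling, where 9 rose and 8 fell. Crim1 of that list rose by 3.72 ± 0.073, and the receptor kinase gene Axl fell by 1.40.

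Genes of the extracellular matrix rose more often than they fell in each of 4 lists, 2 of which were even among genes with at least 1 CPM in all 4 libraries. Of 27 interstitial collagen genes 14 rose and 3 fell, with a median of 0.61, and with library size scaling 17 rose and 1 fell. Col1a2 pairs with Col1a1 in type I collagen, and Col1a1 was at 7.62 and 7.93 CPM in Dlx2 EBs and 3.41 and 3.31 CPM in GFP EBs. Per kb of exon, the mean level in Dlx2 EBs was 101 CPM for Col1a2 and 1.2 CPM for Col1a1, and in GFP EBs 0.0993 CPM for Col1a2 and 0.512 CPM for Col1a1. Col6a1, a chain of type VI collagen, was at 0.567 and 0.318 CPM with Dlx2 and 9.30 and 9.86 CPM with GFP. Of 25 basement membrane genes 14 rose and 10 fell, at a median of 1.05, and 13 rose by at least 1 on the log2 scale. With at least 1 CPM in all 4 libraries 9 of 20 rose and 9 fell, at a median of 0.00044. The type IV collagen genes Col4a1 and Col4a2 and the laminin genes Lama1 and Lamb1 rose by 1.05 to 2.34 on the log2 scale. The proteoglycan genes Agrn and Hspg2 fell by 1.26 and 0.59. Of 43 genes of elastic fibres, matricellular proteins and proteoglycans 23 rose and 12 fell, at a median of 0.57, with the fibrillins Fbn1 and Fbn2 and the fibulin Fbln5 up by 3.81, 3.43 and 6.95. Among 44 proteases and inhibitors 18 rose and 13 fell, and of the 36 with at least 1 CPM in all 4 libraries 13 rose and 13 fell. The gelatinase gene Mmp9 was at 4.29 and 4.02 CPM, against 22.2 and 23.9 CPM, and the plasminogen activator gene Plau fell by 2.32. Adam12 of mesenchyme rose by 4.32 ± 0.21.

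Cadherins rose on balance, with 21 of 34 higher and 6 lower and a median of 1.05. With at least 1 CPM in all 4 libraries 9 of 15 rose and 3 fell, at a median of 0.44. N-cadherin (Cdh2) was at 136 and 129 CPM in Dlx2 EBs and 14.1 and 11.2 CPM in GFP EBs. E-cadherin (Cdh1) was at 518 and 498 CPM, against 574 and 562 CPM, a log2 change of -0.16 ± 0.047 that turned to 0.01 with library size scaling. That call was also lost without Dlx2 replicate 2 (-0.13, adjusted p = 0.0585). Per kb of exon, the mean level of Cdh2 was 16.4 CPM and that of Cdh1 111 CPM in Dlx2 EBs, against 1.57 and 124 CPM in GFP EBs, so that Cdh1 stayed the higher of the pair. Of 35 genes of tight junctions, desmosomes and epithelial identity 18 rose and 13 fell, at a median of 0.33 that was 0.080 over the 26 with at least 1 CPM in all 4 libraries. The plakophilin gene Pkp1 rose by 4.25 ± 0.29, Dsg2 of desmosomes by 1.07 ± 0.057 and Cldn6 of tight junctions fell by 0.88. Of 17 integrins 7 rose and 6 fell, among them the laminin receptor chain Itga3, lower by 1.40. Of 34 genes of the actin cytoskeleton 19 rose and 6 fell, and with library size scaling 22 rose and 2 fell, with Tpm1 at 901 and 879 CPM against 243 and 262 CPM.

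Most genes of the machinery of growth were lower, by small amounts. In the fifth of all tested genes with the highest mean level, 27.3% rose and 54.9% fell. How far level bears on this list, and on the lists of translation, metabolism and replication below, was not tested. Of 40 genes of ribosome biogenesis and rRNA transcription 38 fell and 1 rose, with a median log2 change of -0.65 against 0.02 over all genes. With library size scaling, which shifted all genes up, 36 still fell. The rRNA processing factor Heatr1 was at 174 and 169 CPM in Dlx2 EBs and 406 and 399 CPM in GFP EBs. Nucleolin (Ncl) was at 1710 and 1610 CPM, against 2920 and 2880 CPM. Polr1b, a subunit of RNA polymerase I, was at 76.7 and 72.2 CPM, against 143 and 142 CPM. Myc, a regulator of these genes, fell by 1.42 on the log2 scale, at 22.9 and 26.6 CPM against 64.1 and 68.4 CPM. The assembly factor Rrs1 was not called, at 108 and 115 CPM against 105 and 118 CPM (adjusted p = 0.998).

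Genes of translation and protein turnover followed. Of 36 genes of translation initiation and tRNA charging 31 fell and 2 rose, at a median of -0.47. Eif2s2, a subunit of the initiator tRNA carrier, was at 332 and 343 CPM with Dlx2 and 844 and 814 CPM with GFP. The helicase Eif4a1 was at 1120 and 1140 CPM, against 2300 and 2160 CPM. Of 65 ribosomal protein genes 41 fell and 9 rose, at a median of -0.28, and with library size scaling 33 fell and 20 rose. Exceptions with large rises were Rps28, Rps29 and Rpl38, at log2 changes of 1.79, 1.33 and 1.03, whose short transcripts have many near-identical copies in the genome and whose counts are uncertain. Of 37 proteasome genes 29 fell and 1 rose, at a median of -0.35, and with library size scaling 23 fell and 6 rose. Psmd1, of the regulatory particle, was at 266 and 256 CPM, against 397 and 391 CPM. Of 42 genes of lysosome and autophagy 13 rose and 21 fell, at a median of -0.13 that turned to 0.04 with library size scaling, where 16 rose and 15 fell.

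**Figure D3:**
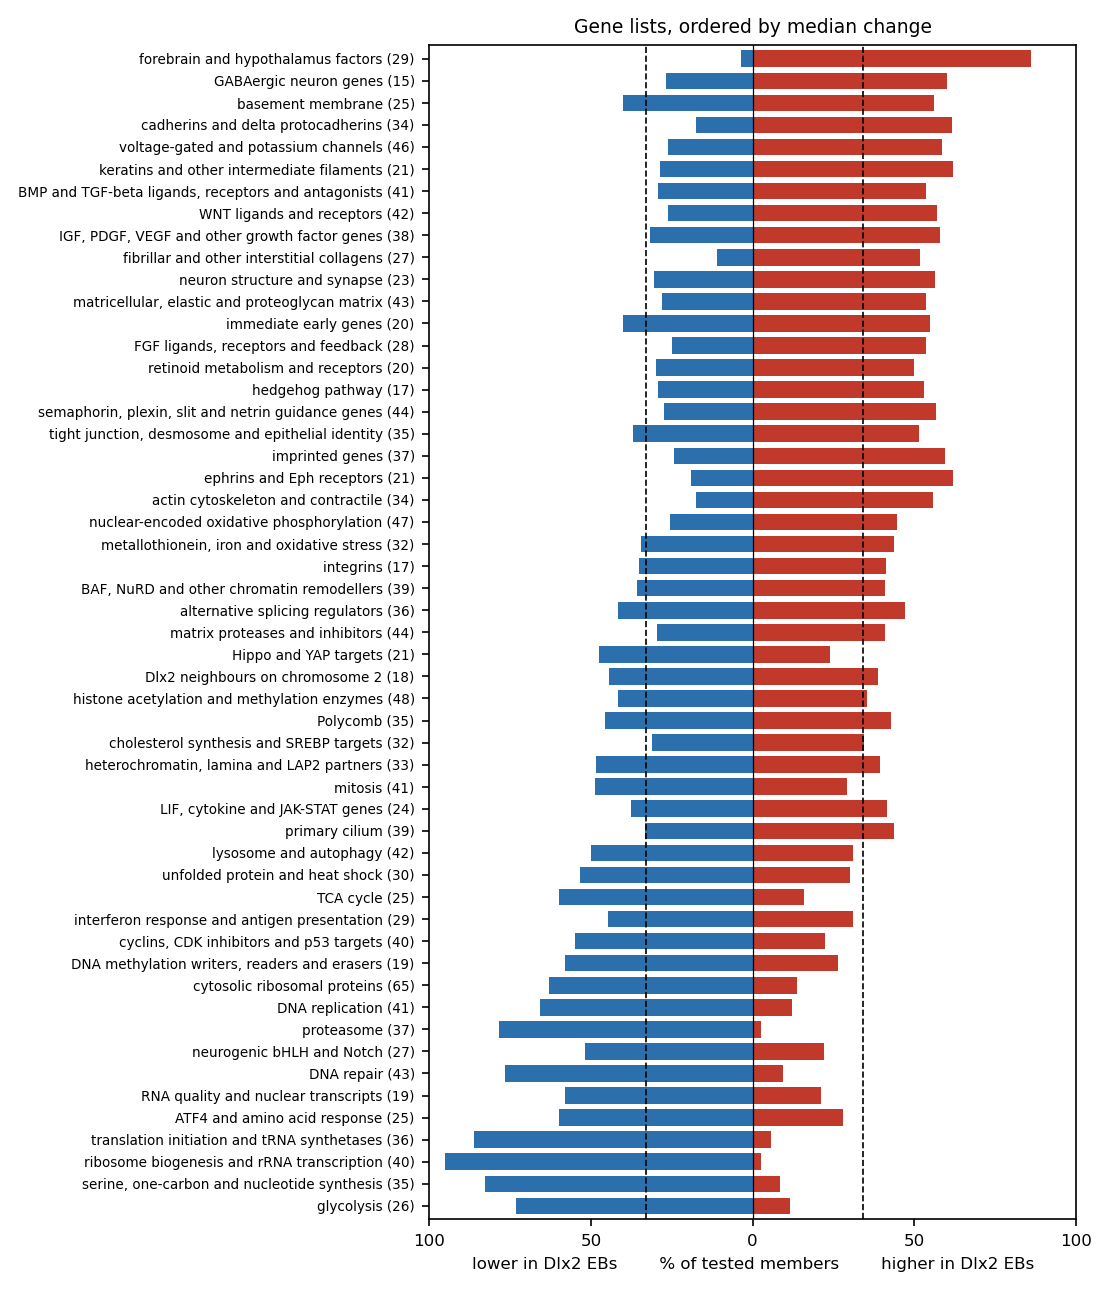
Share of the tested members of each gene list, marker lists of other cell types left out, that was higher (red, to the right) or lower (blue, to the left) in Dlx2 EBs, in % of tested members, whose number stands in brackets. Lists run by median log2 change, highest at the top, and dashed lines mark the share over all 18650 genes, 34.1% higher and 33.0% lower. Forebrain and hypothalamus factors stand at the top, and glycolysis, nucleotide synthesis, ribosome biogenesis and translation at the bottom.

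Most genes of glycolysis and of nucleotide synthesis fell with Dlx2. Of 26 glycolysis genes 19 fell and 3 rose, at a median of -0.76. Their summed level was 7598 and 7775 CPM in Dlx2 EBs and 14090 and 14410 CPM in GFP EBs. Pdk1, a kinase that inhibits pyruvate dehydrogenase, was at 36.4 and 35.3 CPM, against 249 and 259 CPM. The phosphofructokinase gene Pfkp was at 53.1 and 50.5 CPM, against 247 and 244 CPM. Pgk1, Ldha and the glucose transporter gene Slc2a1 fell by 1.39, 1.10 and 1.07 on the log2 scale. The lactate transporter gene Slc16a1 rose by 0.91 ± 0.049, and Ldhb was not called (adjusted p = 0.149). Of 35 genes of serine, one-carbon and nucleotide synthesis 29 fell and 3 rose, at a median of -0.71. Tdh, the threonine dehydrogenase on which mouse ES cells depend, was at 63.3 and 60.6 CPM, against 298 and 318 CPM. The glycine cleavage gene Gldc and the purine synthesis gene Ppat fell by 1.26 and 1.13.

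Mitochondrial genes did not follow as a block. Of 25 TCA cycle genes 15 fell and 4 rose, and with library size scaling 8 fell and 8 rose. Of 47 nuclear-encoded genes of oxidative phosphorylation 21 rose and 12 fell, at a median of 0.10, and with library size scaling 29 rose and 6 fell. Cox5b, a subunit of complex IV, was at 150 and 169 CPM in Dlx2 EBs and 65.5 and 72.9 CPM in GFP EBs. Its mitochondrially encoded partner mt-Co1 fell, as given above, and 14 of the 25 tested genes of the mitochondrial genome fell while 6 rose. Of 32 genes of cholesterol synthesis and SREBP targets 11 rose and 10 fell, at a median of -0.07 that turned to 0.10 with library size scaling, with Fasn of fatty acid synthesis lower by 0.86. Of 25 ATF4 and amino acid response genes 15 fell and 7 rose. Atf4 was at 175 and 181 CPM, against 314 and 322 CPM, and the lipoprotein receptor gene Vldlr of that list at 88.6 and 86.1 CPM, against 3.21 and 3.11 CPM. Of 30 unfolded protein and heat shock genes 16 fell and 9 rose, at a median of -0.15 that turned to 0.03 with library size scaling (10 higher and 10 lower), and the small heat shock gene Hspb1 fell by 1.72.

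**Figure D4:**
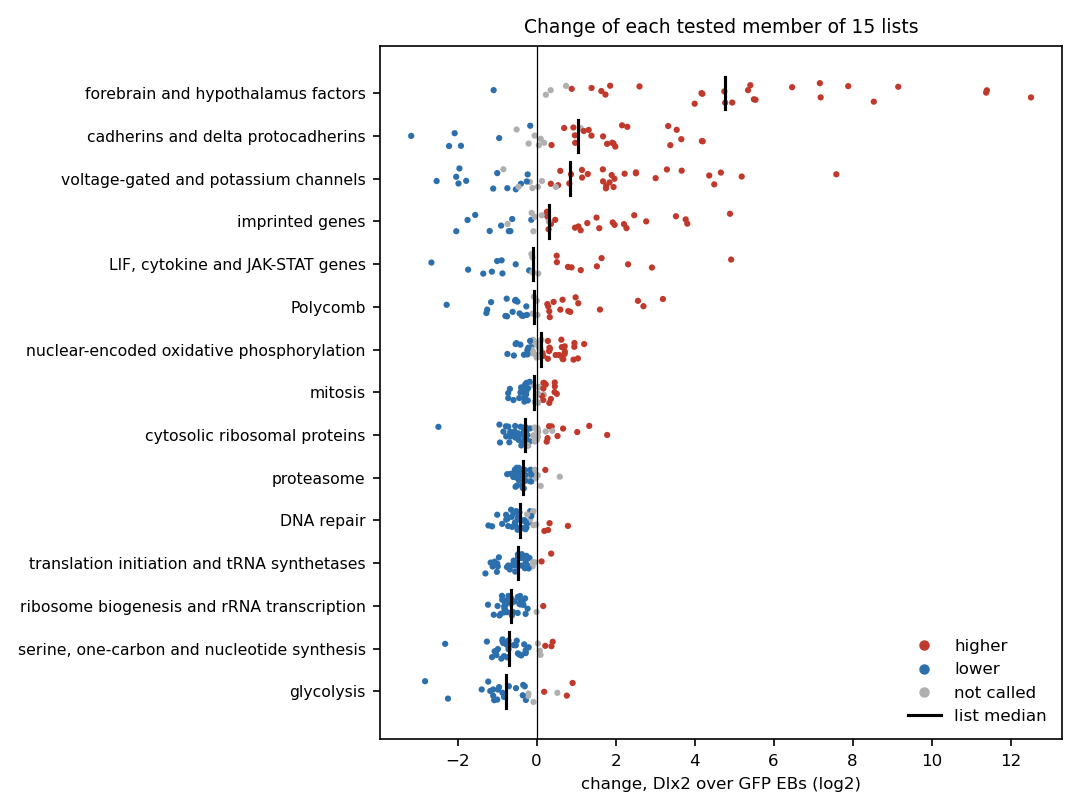
Log2 change (Dlx2 over GFP EBs) of each tested member of 15 lists, with red points higher, blue points lower and grey points not called, and a black bar at the list median. Forebrain factors spread from below 0 to above 12, whereas members of the biosynthetic lists lie in a narrow band mostly below 0, with a median of -0.76 for glycolysis and -0.65 for ribosome biogenesis.

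Most genes of DNA replication and repair fell, while mitosis genes were divided. Of 41 DNA replication genes 27 fell and 5 rose, at a median of -0.35, and with library size scaling 24 fell and 11 rose. Of 43 DNA repair genes 33 fell and 4 rose, at a median of -0.42. Of 41 mitosis genes 20 fell and 12 rose, at a median of -0.08 that turned to 0.10 with library size scaling, where 12 fell and 19 rose. The replication factor gene Rfc5 was at 122 and 116 CPM in Dlx2 EBs and 252 and 255 CPM in GFP EBs. The checkpoint kinase gene Chek2 was at 26.4 and 25.6 CPM, against 59.6 and 61.6 CPM. The mitotic kinase gene Plk1 rose by 0.45 ± 0.048 and Cdc20 by 0.46 ± 0.050, whereas cyclin B1 (Ccnb1) fell by 0.59. Cyclins of the G1 phase diverged most. Ccnd2 was at 152 and 138 CPM, against 13.5 and 14.9 CPM. Ccnd1 was at 60.3 and 62.7 CPM, against 147 and 153 CPM, and Ccne1 at 85.7 and 87.3 CPM, against 234 and 234 CPM. Both libraries of each group showed this order. The inhibitor genes Cdkn1b and Cdkn2c rose by 1.17 ± 0.069 and 2.02 ± 0.19, and Cdkn2b fell by 1.90.

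Among chromatin regulators, members of the same complex moved apart. Polycomb repressive complex 1 contains a Phc, a Cbx and a Pcgf subunit such as BMI1. Phc1, the form typical of ES cells, was at 124 and 126 CPM in Dlx2 EBs and 597 and 615 CPM in GFP EBs. Bmi1 was at 59.4 and 60.0 CPM, against 9.58 and 8.73 CPM. Cbx8 was at 10.8 and 11.2 CPM, against 1.26 and 1.13 CPM, while Cbx7, the ES cell form, fell by 0.43. The catalytic subunits Rnf2 and Ezh2 were not called (adjusted p = 0.922 and 0.0615), and Jarid2, a partner of the second Polycomb complex, fell by 1.27. Of 35 Polycomb genes 15 rose and 16 fell, at a median of -0.07 that turned to 0.11 with library size scaling.

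Of 19 genes of DNA methylation 11 fell and 5 rose, and with library size scaling 9 fell and 7 rose. The demethylation enzyme gene Tet1 was at 114 and 103 CPM in Dlx2 EBs and 401 and 377 CPM in GFP EBs. The de novo methylation genes Dnmt3b and Dnmt3l fell by 1.21 and 1.55 on the log2 scale, and the corepressor gene Trim28 by 1.16. Of 39 remodeller genes 16 rose and 14 fell, and with library size scaling 21 rose and 11 fell. Smarca2, an ATPase of the BAF complex, was at 95.1 and 92.9 CPM, against 13.4 and 13.5 CPM, and Chd3 of NuRD was at 177 and 178 CPM, against 35.3 and 39.5 CPM. The architectural protein gene Hmga2 was at 220 and 219 CPM, against 25.5 and 23.5 CPM. Of 48 histone-modifying enzymes 17 rose and 20 fell, at a median of -0.06 that turned to 0.12 with library size scaling, where 24 rose and 15 fell. Hdac9 rose by 3.04 ± 0.17, and Hdac1 and Kdm4c fell by 0.88 and 1.84.

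Imprinted genes, expressed from 1 parental copy and many of them regulators of fetal growth, rose more often than they fell, with 22 and 9 of 37 and a median of 0.31. Dlk1, at the Meg3 locus, was at 174 and 192 CPM in Dlx2 EBs and 6.62 and 5.66 CPM in GFP EBs. The noncoding RNAs of the same locus, Meg3 and Rian, rose by 1.59 ± 0.049 and 1.28 ± 0.054. The zinc finger gene Plagl1 was at 397 and 376 CPM, against 29.9 and 26.6 CPM. H19 was at 273 and 280 CPM, against 69.8 and 75.7 CPM, and its neighbour Igf2 at 40.0 and 39.1 CPM, against 18.0 and 22.3 CPM. Snrpn and Snhg14, of another imprinted locus, fell by 1.75 and 1.24. Counts per gene do not show which parental copy was read.

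Channels for ions rose more often than not, with 27 of 46 higher and 12 lower and a median of 0.85. With at least 1 CPM in all 4 libraries 13 of 26 rose and 7 fell, at a median of 0.14. The potassium channel gene Kcnq3 was at 24.2 and 21.6 CPM in Dlx2 EBs and 0.974 and 1.05 CPM in GFP EBs. The calcium channel genes Cacna1c and Cacna2d3 rose by 3.30 ± 0.20 and 4.37 ± 0.28. Of 36 splicing regulators 17 rose and 15 fell. The neuronal and muscle regulator Rbfox1 was at 5.24 and 4.95 CPM, against 0.284 and 0.404 CPM. Celf2 rose by 1.98 ± 0.076, the epithelial Esrp1 by 1.43 ± 0.052, and Ptbp1, a repressor of neuronal exons, fell by 0.58. Of 20 immediate early genes 11 rose and 8 fell, at a median of 0.53 that turned to -0.06 over the 16 with at least 1 CPM in all 4 libraries, with Egr1 at 146 and 143 CPM, against 37.5 and 39.5 CPM, and Ier3 at 2.43 and 2.84 CPM, against 16.8 and 17.8 CPM.

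Of 29 interferon response genes 9 rose and 13 fell, at a median of -0.22 that was -0.39 over the 23 with at least 1 CPM in all 4 libraries. The RNA sensor gene Ddx58 was at 20.7 and 18.8 CPM in Dlx2 EBs and 73.6 and 68.5 CPM in GFP EBs, and Oasl2 fell by 2.54 on the log2 scale. Of 32 metallothionein, iron and oxidative stress genes 14 rose and 11 fell. Gpx4, which protects membranes from peroxides, was at 109 and 113 CPM, against 402 and 425 CPM, and the quinone reductase gene Nqo1 rose by 1.53 ± 0.068. Of 39 primary cilium genes 17 rose and 13 fell, at a median of -0.13 that turned to 0.05 with library size scaling. Of 33 genes of heterochromatin and lamina 13 rose and 16 fell, at a median of -0.08 that turned to 0.10 with library size scaling, and the lamin receptor gene Lbr fell by 0.95.

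Direction varied with the level, length and kind of gene. In the fifth of tested genes with the lowest mean level, 30.7% rose and 13.3% fell, and in the fifth with the highest level 27.3% rose and 54.9% fell. Among protein-coding genes, the fifth with the longest span on the genome (72.9 to 2961 kb) had 49.0% higher and 28.0% lower. The 4 groups of shorter genes had 31.7% to 36.6% higher and 32.1% to 39.8% lower. Of 15007 protein-coding genes 36.9% rose and 35.3% fell. Of 522 lincRNAs 23% rose and 33.5% fell, and of 549 antisense genes 25.9% rose and 14.4% fell. As counts were not separated by strand, reads of antisense genes may include those of genes they overlap. Medians of chromosomes ran from -0.07 on chromosome 5 to 0.16 on chromosome 12, apart from the mitochondrial genome at -0.39 and chromosome Y with 4 tested genes at -0.98.

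The neighbours of strongly changed genes along the chromosome were counted as well. Of tested neighbours of genes that rose by at least 3 on the log2 scale, 275 of 1019 (27.0%) rose by at least 1, against 17.2% of the 25898 neighbours of any tested gene. Of neighbours of genes that fell by at least 2, 102 of 577 (17.7%) fell by at least 1, against 8.14%. Protein-coding genes alone were counted. Neighbours that share exonic positions with the gene, or the first 3 letters of its symbol, were left out.

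By symbol root, the highest medians after Dlx were those of Hoxa (2.09), Nkx (1.97), Krt and Pcdh (both 1.85) and Cacna (1.15). Some members, such as Nkx2-1 and Krt25, were near 0 in GFP EBs and passed the filter through the Dlx2 libraries. Such members could hardly do other than rise, and the ranking was not repeated without them. The Pcdh and Cacna roots hold adhesion proteins and calcium channel subunits. The lowest were those of Platr (-2.02), Olfr (-1.27), Ly (-0.92), G (-0.75), Anxa (-0.69) and Utp (-0.55). Platr symbols are noncoding RNAs linked to pluripotency, of which 15 of 20 fell and 2 rose. Utp genes encode parts of the complex that first processes rRNA, of which 10 of 11 fell and 0 rose. Olfr symbols are olfactory receptors, at low counts here. The roots Ly and G gather unrelated genes.

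Markers of other cell types moved as well, and their part in the results above was not tested. All 10 ES cell markers fell, and their summed level was 1358 and 1398 CPM in Dlx2 EBs and 6425 and 6497 CPM in GFP EBs. Of 11 primitive streak and mesoderm markers 8 rose and 2 fell, but 2 alone had at least 1 CPM in all 4 libraries, with sums of 41.6 and 44.3 CPM against 14.9 and 14.5 CPM. Of 14 markers of primitive and visceral endoderm 9 rose and 2 fell, although their sum was 933 and 935 CPM in Dlx2 EBs and 1190 and 1311 CPM in GFP EBs. Gata4 and Gata6 of that list were at 18.3 and 18.4 CPM and 5.55 and 5.93 CPM with Dlx2. With GFP, Gata4 was at 1.79 and 1.66 CPM and Gata6 at 1.06 and 1.01 CPM. Of 10 trophoblast markers 3 rose and 5 fell, and of 10 blood and endothelium markers 2 rose and 4 fell, with sums of 42.9 and 42.0 CPM against 126 and 123 CPM. Of 9 cardiac and skeletal muscle markers 4 rose and 2 fell, with sums of 48.1 and 45.5 CPM against 51.8 and 53.2 CPM. Of 8 tested fibroblast feeder markers 6 rose and 1 fell. The fibroblast feeder list summed to 1292 and 1323 CPM against 23.3 and 24.7 CPM. Without Col1a2, the other 7 tested feeder markers summed to 50.3 and 52.6 CPM in Dlx2 EBs and 22.5 and 22.8 CPM in GFP EBs. In the lists of surface ectoderm, of blood and endothelium and of cardiac and skeletal muscle, 1 member each had no count in GFP EBs. In that of primitive streak and mesoderm 2 members had none. No member of these marker lists was without counts in Dlx2 EBs. Of 19 transcripts that track RNA quality, most of them mitochondrial or nuclear, 4 rose and 11 fell.

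The day-2 changes were set beside the difference between Msx1-positive and Msx1-negative cells at day 8. All 4 of those libraries came from the induced Dlx2 line, and none was used at day 2. Dlx2 itself was at 1220 ± 95.4 CPM in Msx1-positive and 274 ± 1.62 CPM in Msx1-negative cells at that time (SD, n = 2). Of 22294 genes tested at day 8, the Msx1-positive fraction had 30.4% higher and 24.3% lower. Of 3036 genes that had risen by at least 1 at day 2 and were tested at both times, 2065 (68.0%) were higher in Msx1-positive cells, against 33.5% of all 18122 genes tested at both times. They made up 34.1% of the 6063 genes tested at both times that were higher at day 8, and 65 (2.14%) of the 3036 were lower. Of 1728 genes that had fallen by at least 1, 1062 (61.5%) were lower in Msx1-positive cells, against 28.6% of all, and 174 (10.1%) were higher. The changes at both times correlated across genes at a Pearson r of 0.600 and a Spearman rho of 0.598, over genes that are not independent replicates. Among the 66 genes of the 10 CPM rule that were tested at day 8, all 66 were higher in Msx1-positive cells.

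**Figure D5:**
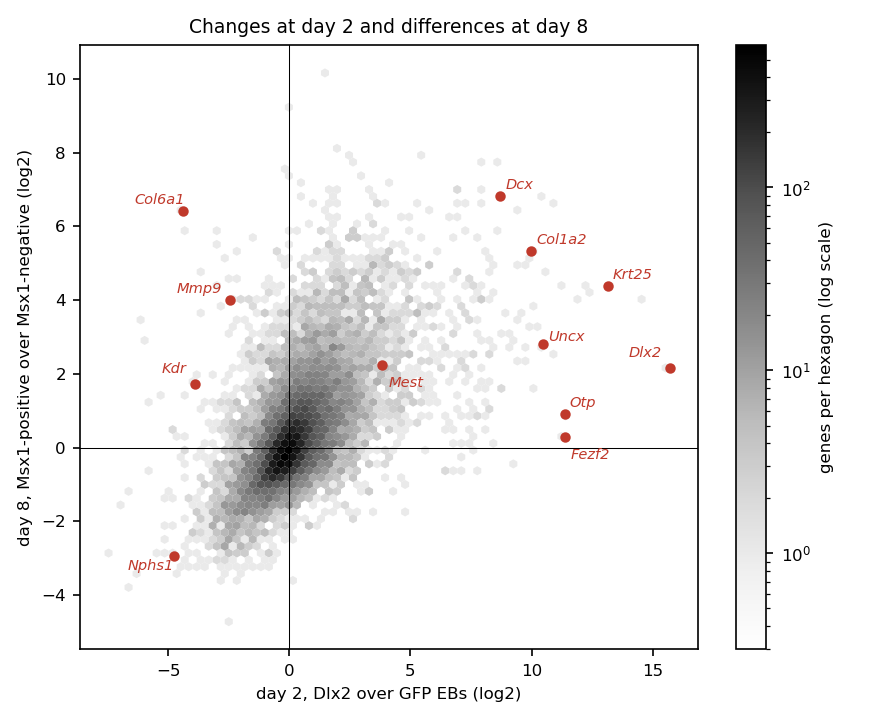
Log2 difference between Msx1-positive and Msx1-negative cells at day 8 (vertical axis) against log2 change between Dlx2 and GFP EBs at day 2 (horizontal axis) for 18122 genes tested at both times. Grey hexagons show the number of genes on a log scale, and 12 genes are marked in red. Most genes lie along a rising band (Pearson r = 0.600), with Fezf2 near 0 (0.28) and Otp at 0.90 at day 8, and Col6a1, Mmp9 and Kdr higher at day 8 after a fall at day 2.

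The rises of day 2 differed in how they stood at day 8. Col1a2 was at 1130 ± 79.4 CPM in Msx1-positive and 28.1 ± 0.560 CPM in Msx1-negative cells, and Krt25 at 106 ± 1.97 and 5.11 ± 0.410 CPM in the same order. Rgs4, a regulator of G protein signalling that had been at 114 and 108 CPM with Dlx2 at day 2 against 0.0812 and 0.162 CPM with GFP, was at 108 ± 3.08 CPM in Msx1-positive and 3.22 ± 0.162 CPM in Msx1-negative cells. The forebrain factors Otp and Fezf2 were low in both fractions. Otp was nevertheless called higher in Msx1-positive cells (log2 difference 0.90, adjusted p = 0.044), and Fezf2 was not called (0.28, adjusted p = 0.627). Otp was at 2.14 ± 0.392 and Fezf2 at 1.23 ± 0.195 CPM in Msx1-positive cells, and at 1.15 ± 0.0686 and 1.02 ± 0.490 CPM in Msx1-negative cells. Stat3 was at 238 ± 8.73 CPM in Msx1-positive and 77.3 ± 0.0209 CPM in Msx1-negative cells.

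Some genes that fell at day 2 were higher in Msx1-positive cells at day 8. Col6a1 was at 104 ± 2.87 CPM in Msx1-positive and 1.22 ± 0.336 CPM in Msx1-negative cells. Mmp9 was at 60.1 ± 3.91 CPM in Msx1-positive and 3.76 ± 0.249 CPM in Msx1-negative cells. Axl and Kdr had day-8 log2 differences of 3.96 and 1.72. Others kept the direction of day 2, such as Nphs1, at 8.74 ± 0.148 CPM in Msx1-positive and 66.9 ± 1.59 CPM in Msx1-negative cells, and Phc1, with a day-8 log2 difference of -1.82. The Msx1 sort and the later time differ from the day-2 design, and values at both times are given side by side only.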

How the data were processed

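The authors deposited raw read counts per gene symbol, which hold whole numbers and were used without change. Tools named in the submitters' processing notes are HISAT2 2.1.0, fastp 0.20.0 and DESeq2 1.18.1, with the build GRCm38. For the counting program and its annotation, the sources used here give no name. The library kit named in the labels' protocols does not keep strand. The day-2 column names give the line but not doxycycline, and were taken to mean the induced EBs. The 4 uninduced samples were not analysed here, and 2 columns of the other table were not used. The day-2 table holds symbols with at least 5 counts in sum, and 26 of its symbols have turned into dates. Coordinates and overlaps come from GENCODE vM21 by symbol, which matched 25552 symbols.

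Genes were kept by filterByExpr of edgeR, scaled by TMM and tested with its robust quasi-likelihood F test. Adjustment was by Benjamini-Hochberg over all genes tested, with a threshold of 0.05 (R 4.3.3, edgeR 4.0.16, limma 3.58.1, DESeq2 1.42.0, Python 3.11.15, pandas 2.3.3, numpy 2.4.6). The day-2 fit held the 4 day-2 libraries alone. CPM use TMM-scaled library sizes. SEs were back-computed from the F statistic and are left out where a group has few counts. Floors of 3 counts and 95% exact intervals cover counting error only. Counts were simulated from the mean levels of these genes with 1 assumed spread for all, and changes were placed on genes above a minimum count. There, 86% of 100 genes changed by 1 on the log2 scale and 98% of 100 changed by 2 were recovered. Recovery at lower counts or with a wider spread was not tested. Day 8 was fitted together with the sorted fractions of a later day, which shared its gene filter, scaling and estimate of the spread.

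The members, the 61 gene lists and the rule for named genes were chosen with earlier results of these data known. The rule names the largest rises, falls, gains and losses, up to 4 leading members and 1 uncalled member of each list, and the symbol roots with the highest and lowest medians, and a few genes it names are not reported here. A further 84 genes were chosen after their values were seen: Agrn, Aldh1a2, Aldh1a3, Atf4, Bhlhe22, Cacna1c, Cacna2d3, Calb2, Cbx7, Ccnd1, Ccne1, Cdc20, Cdh1, Cdh2, Cdkn1b, Cdx4, Celf2, Cldn6, Col1a1, Col4a1, Col4a2, Dlx3, Dlx5, Dlx6, Dsg2, Ebf3, Egr1, Eif4a1, Emx2, Esrp1, Etv1, Ezh2, Fbn2, Fgf5, Foxd1, Fzd2, Fzd7, H19, Hdac1, Hmx2, Hspg2, Igf2, Igfbp2, Irx1, Jak1, Jarid2, Kit, Krt71, Lamb1, Ldha, Lefty1, Lifr, Myc, Ncl, Nodal, Nqo1, Nrp2, Otx2, Pim3, Plau, Plk1, Ptbp1, Ptch1, Rarg, Rgs4, Rian, Six3, Slc16a1, Slc18a3, Slc2a1, Smad6, Snrpn, Socs2, Socs3, Spry1, Spry4, Stmn2, Stra8, Syn1, Tbx2, Tgfb1, Tgfbr1, Trh and Vax1.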

Additional observations from a re-analysis of the deposited data

How the results depend on the processing

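Against 6367 genes higher and 6157 lower in Dlx2 EBs, the counts were 6357 and 6149 with RLE scaling, 8003 and 4576 with library size scaling, 6973 and 6221 without a low-count filter, and 4906 and 4849 with at least 1 CPM in all 4 libraries. They were 5264 and 5157 by DESeq2, 6194 and 6031 after thinning, and 6360 and 6150 without Dlx2 and mitochondrial genes. Counting only absolute log2 changes of at least 1 gave 3191 and 1798. Leaving out 1 library at a time gave 5272 to 6252 higher and 5218 to 6031 lower.

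Same-numbered libraries did not deviate together (correlation of deviations 0.043), so the numbers were not taken to pair the samples, and a replicate block gave 6536 higher and 6347 lower. At day 8, against 6772 higher and 5415 lower in Msx1-positive cells, the block gave 6661 and 5298, and leaving out 1 library gave 5785 to 6339 and 4783 to 4936. With a minimum log2 change of 2 in place of 1, 73.3% in place of 68.0% of the day-2 rises and 63.0% in place of 61.5% of the falls were called in the same direction at day 8.

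Among the called genes of the 225 named, 1 changed sign under any setting that tested it: Cdh1, at 0.013 with library size scaling. Library size scaling moved the median log2 change of all tested genes from 0.02 to 0.20. Named genes that were not called, some of them near 0, are left out of that count of sign changes. Among named genes called in the report, Mt2, Cdh1, Neurog2 and Aldh1a2 were the ones whose call was lost under any setting that tested them. Genes left out by the filter of a setting could not be checked under it. The limit of at least 1 CPM in all 4 libraries left out many that were near 0 in GFP EBs. Genes at low counts in GFP EBs have fold changes that depend on a handful of reads.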
